A study of Mus musculus with 29 samples.

Results

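Somites 6 to 9 (SOMC) were compared with the younger somites 2 to 5 (SOMB) of mouse embryos at embryonic day 9.0, with 4 libraries in each group, 8 of the 29 in the series. The members were taken from the library titles, and no measured value was used to choose them, though earlier results of these data were known. SOMB and SOMC are both paraxial mesoderm of Dll1-YFP embryos on a C57BL/6 background, with no culture or treatment stated, from which cells bearing the yellow fluorescent mark of the Dll1 lineage were sorted by flow cytometry. The same fit also held SOMA (n = 3, presomitic mesoderm with the newest somite) and SOMD (n = 4, somites from 10 on), from embryos of the same kind. How the lineage mark is made is not given in the sources used here, so which other cells carry it is not known here. The question that the pair addresses is what changes in the transcriptome as a somite ages by a few segments.

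Somites bud from the presomitic mesoderm under an oscillator driven by Notch, FGF and Wnt signals. The newest somite is therefore the most posterior one, and somites with higher numbers are both older and more anterior. Each ball of epithelium then divides into sclerotome, the ventral source of vertebrae and ribs, and dermomyotome, the dorsal source of skeletal muscle and back dermis. Hedgehog from the notochord favours the former, and Wnt and BMP signals pattern the latter. Age and axial position change together between SOMB and SOMC and cannot be told apart here.

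Gene counts per library ran from 14319991 to 25497288 in SOMB and from 15834045 to 26950283 in SOMC, and 13790 of 23337 genes were tested. SOMC1 and SOMC4 were nearly identical. Their counts differed by 1.95 times the sampling variance (chi-square over degrees of freedom), against 10.4 to 42.3 for every other pair of SOMB or SOMC libraries. They were kept as separate samples, because 1.95 is above the limit of 1.5 set for summing, and the called genes named below were also tested with this pair, and the like pair SOMD1 and SOMD4, summed to 1 sample each. If the pair is 1 sample, n is 3 in SOMC. SOMB2 stood apart from the other SOMB libraries, with 295.8 CPM of Xist, the RNA of X inactivation, against 802.5 to 996.5 in the other 7. Both Xist and the Y-linked Ddx3y were found in each library, so each mixed at least 1 female with 1 male embryo. Whether replicates come from separate pools of embryos is not stated, so p-values measure only the spread between libraries, which may be technical. In SOMB1, SOMC1 and SOMC4, 12.0 to 12.5% of reads lay in no annotated feature, against 7.57 to 10.7% in the others. Levels are TMM-scaled CPM, counts relative to library size, given as mean ± SD over the 4 libraries of a group. Differences are log2 fold changes of SOMC minus SOMB ± an SE derived from the test.

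In SOMC, 67 genes rose and 47 fell (edgeR quasi-likelihood test, adjusted p under 0.05). These are 0.827% of the genes tested, 0.486% higher and 0.341% lower. As the calls rest on the same values, the next count is a description only. In 113 of the 114 the SOMC libraries all lay on one side of all SOMB libraries, which held for 6.05% of the genes tested. The exception was Chga, a gene of secretory granules (−1.55 ± 0.34, adjusted p = 0.188 with pairs summed), named here because it is the only one. Of the changes, 38 increases and 16 decreases were at least 2-fold. In bulk RNA, fewer cells of a type and less RNA per cell cannot be told apart.

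**Figure D1:**
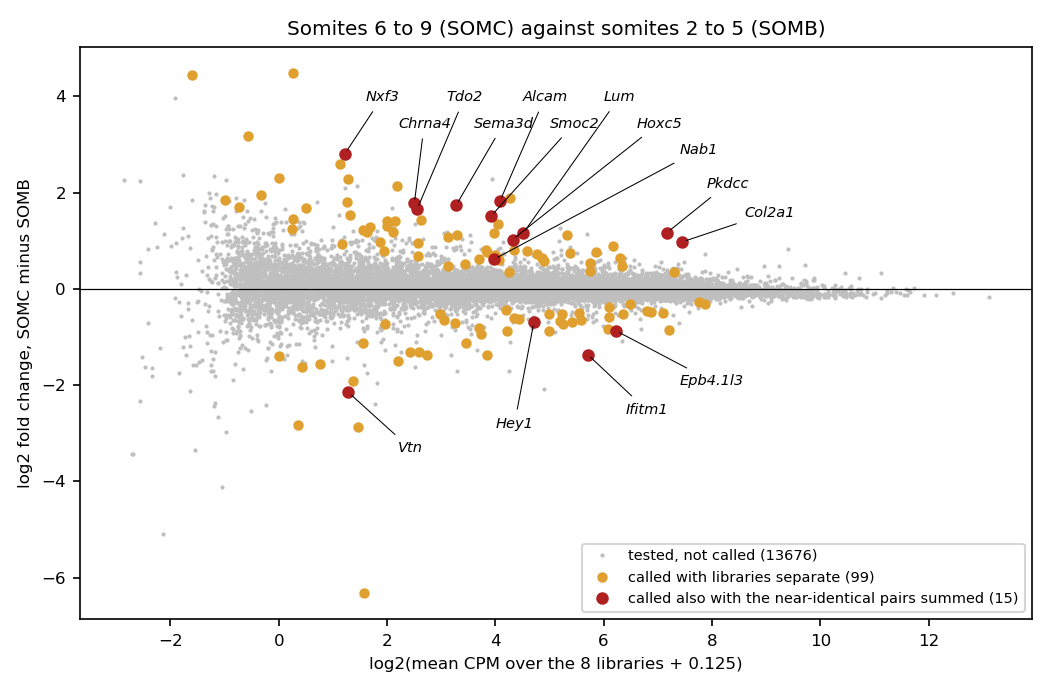
Each point is 1 of the 13790 genes tested, with its mean level over the 8 libraries on the horizontal axis (log2 of CPM plus the prior count) and its log2 fold change, SOMC minus SOMB, on the vertical axis. The 15 genes in red, 11 above 0 and 4 below, were called both with the libraries separate and with the near-identical pairs summed; the 99 in orange were called only with the libraries separate.

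With the near-identical pairs summed, 11 genes rose and 4 fell, all 15 of them among the 114. All 114 kept their sign, a description only, since they were called on these same libraries. The other 99 then had an adjusted p of 0.0512 to 0.228. In the gene lists described below, the calls left were then 1 each for Notch targets (Hey1), cartilage (Col2a1), matrix (Lum), guidance (Sema3d), adhesion (Alcam), BMP ligands and antagonists (Smoc2) and Hox groups 1 to 5 (Hoxc5), and none in the other lists. The counts also moved with single libraries. Without SOMB4 edgeR called 16 higher and 9 lower, without SOMB1 28 and 21, without SOMC1 20 and 12, and without SOMC4 17 and 12. Leaving out SOMC3 gave 59 and 24. Only 24 of the 114 passed without each single library, and the others named below as called lost the call without 1 or more, most often SOMB4, SOMC4 or SOMC1. Among the 5 libraries with the lower share of reads in no feature, 1 gene passed as higher and 4 as lower, of which Pkdcc and Idi1 are in the 114. The 3 libraries with the higher share allow no test, since SOMB1 is alone there. Within each side of that division the 67 were all above 0 and the 47 all below, a description only, since the calls rest on these libraries.

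**Figure D2:**
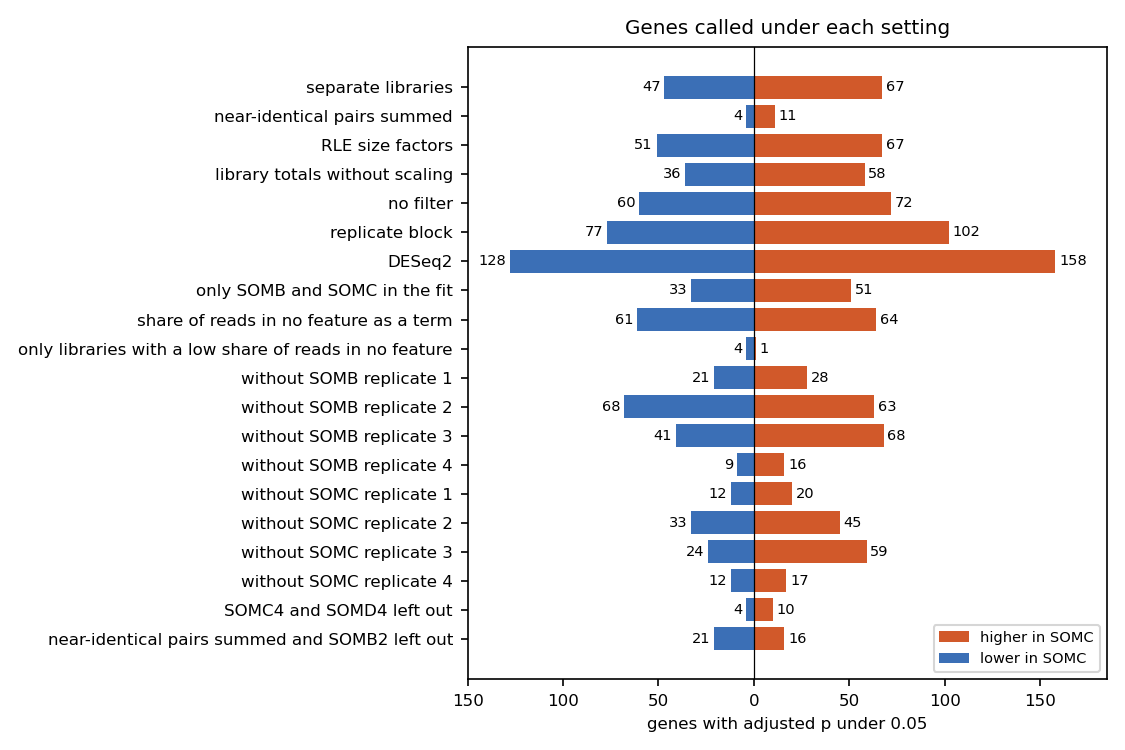
Bars give the number of genes called higher (right, orange) or lower (left, blue) in SOMC under each setting, at an adjusted p under 0.05. The counts fall from 67 and 47 with separate libraries to 11 and 4 with the near-identical pairs summed, and rise to 158 and 128 with DESeq2.

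The 15 genes called both ways are the firmest differences between these somites, and 14 of them also passed without each single library. They include matrix genes, a secreted regulator of bone growth, adhesion and guidance genes, a Hox gene and a Notch target. The exception was Nxf3, a gene of the nuclear RNA export family (2.81 ± 0.50), which had an adjusted p of up to 0.0644 without SOMB1 or SOMB4. Nxf3, Nab1 and Vtn were added to the named genes after their values were seen. Coordinates below are those of RefSeq on GRCm38.p6, the assembly called mm10.

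Pkdcc (chr17:83215283-83225069), which encodes a secreted tyrosine kinase needed for growth of long bones, had 74.6, 88.1, 113 and 79.0 CPM in SOMB1 to SOMB4 and 187, 230, 205 and 176 CPM in SOMC1 to SOMC4. The lowest SOMC library thus lay well above the highest SOMB library. Pkdcc rose by 1.17 ± 0.13 (adjusted p = 5.78e-04, and 0.00505 with pairs summed) and also passed among the libraries with the lower share of reads in no feature (adjusted p = 0.0387). Col2a1 (chr15:97975602-98004724), the fibrillar collagen of cartilage, had 117, 126, 130 and 99.4 CPM in SOMB and 267, 220, 193 and 248 CPM in SOMC. The groups were separate, and Col2a1 rose by 0.98 ± 0.13 (adjusted p = 0.00189, and 0.0207 with pairs summed).

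Lum (chr10:97565501-97572703) encodes lumican, a small proteoglycan that binds collagen fibrils. It had 15.8, 15.7, 12.0 and 12.8 CPM in SOMB and 36.3, 25.0, 25.4 and 38.8 CPM in SOMC, where the near-identical SOMC1 and SOMC4 were the highest. Lum rose by 1.15 ± 0.15 (adjusted p = 0.00189, and 0.0215 with pairs summed). Smoc2 (chr17:14279490-14404790), a secreted calcium-binding matrix protein of the SPARC family, had 7.45, 5.35, 10.3 and 8.34 CPM in SOMB and 23.2, 22.7, 20.4 and 22.3 CPM in SOMC. The SOMC libraries were close to one another, and Smoc2 rose by 1.51 ± 0.16 (adjusted p = 3.81e-04, and 0.00505 with pairs summed).

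Alcam (chr16:52248996-52453081), an adhesion molecule of the immunoglobulin family, had 7.41, 4.74, 13.0 and 4.85 CPM in SOMB and 23.4, 31.9, 27.1 and 22.3 CPM in SOMC. SOMB3 was the highest of its group but lay below every SOMC library. Alcam rose by 1.82 ± 0.27 (adjusted p = 0.00508, and 0.0251 with pairs summed). Sema3d (chr5:12383161-12588953), a secreted guidance cue for axons and migrating cells, had 3.97, 6.82, 3.76 and 2.85 CPM in SOMB and 15.8, 13.3, 11.2 and 18.9 CPM in SOMC. It rose by 1.74 ± 0.24 (adjusted p = 0.00345, and 0.0253 with pairs summed), with SOMB2 the highest library of its group.

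Chrna4 (chr2:181022311-181043579), a subunit of neuronal nicotinic acetylcholine receptors, had 1.68, 1.96, 4.43 and 2.14 CPM in SOMB and 10.1, 6.33, 8.97 and 8.81 CPM in SOMC. It rose by 1.78 ± 0.24 (adjusted p = 0.00285, and 0.0259 with pairs summed), although SOMB3 stood above the other 3 libraries of its group. Tdo2 (chr3:81958412-81975728), the enzyme that starts tryptophan breakdown, had 2.16, 2.16, 3.83 and 3.06 CPM in SOMB and 8.08, 9.11, 9.28 and 8.33 CPM in SOMC. The SOMC libraries were close to one another, and Tdo2 rose by 1.66 ± 0.20 (adjusted p = 0.00134, and 0.00867 with pairs summed). Nab1, a co-repressor of EGR factors, went from 12.4 ± 1.02 to 18.9 ± 1.33 CPM and rose by 0.61 ± 0.10 (adjusted p = 0.0074, and 0.049 with pairs summed).

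Among the 4 decreases, Hey1 (chr3:8663359-8667038), a bHLH repressor switched on by Notch, had the smallest spread. It had 30.4, 30.2, 34.6 and 33.7 CPM in SOMB and 19.4, 20.3, 20.8 and 19.4 CPM in SOMC. Hey1 fell by 0.69 ± 0.06 (adjusted p = 1.39e-04, and 0.00475 with pairs summed). Ifitm1 (chr7:140967429-140969827), a membrane protein gene of the interferon-induced family, had 73.1, 64.1, 74.0 and 88.6 CPM in SOMB and 27.1, 30.5, 31.5 and 27.3 CPM in SOMC. It fell by 1.37 ± 0.20, and every SOMC library lay far below the lowest SOMB library (adjusted p = 0.00469, and 0.0253 with pairs summed).

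Epb4.1l3, which links the membrane to the actin skeleton, had 102, 86.2, 89.5 and 111 CPM in SOMB and 58.0, 49.4, 45.1 and 58.9 CPM in SOMC. It fell by 0.87 ± 0.11 (adjusted p = 0.00189, and 0.00867 with pairs summed). Vtn (chr11:78499120-78502325) encodes vitronectin, an adhesive glycoprotein of plasma and matrix. It was low in both groups, at 3.78 ± 0.657 CPM in SOMB and 0.845 ± 0.201 in SOMC, and fell by 2.15 ± 0.27. Smoc2, Hoxc5, Epb4.1l3 and Nxf3 each overlap another gene of the files on GRCm38.p6, and the library kit does not mark strand, so reads of the overlapping genes cannot be told apart. The same holds for 20 of the named or called genes in all, among them Smoc1, Plxna4, Sdpr, Greb1l, Pax1, Pax9, Gli1, Msx1 and Scx.

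**Figure D3:**
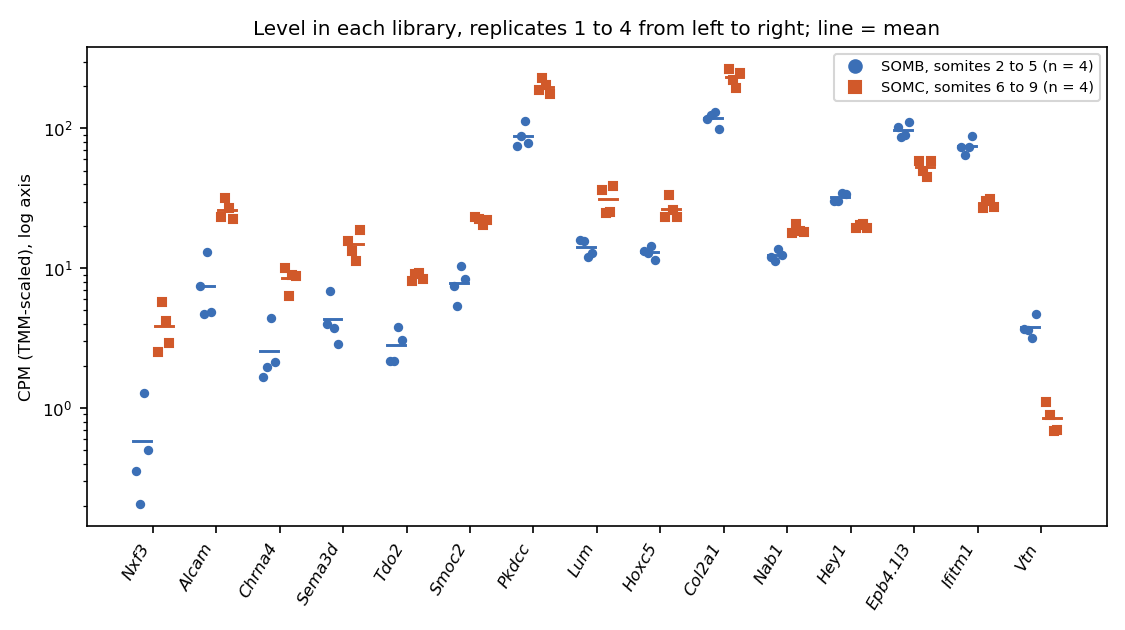
The vertical axis is the level in CPM on a log axis; each point is 1 library (SOMB blue circles, SOMC orange squares, n = 4 each) and each bar a group mean. In all 15 genes, which were called on these same values, the SOMC libraries lie on one side of the SOMB libraries, in 11 above and in 4 below.

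Notch signalling was represented by 9 targets, all tested. Of these, 2 fell and none rose, Hey1 and its paralogue Hey2, against 0.341% lower among all genes, and the median difference was −0.20 against 0.00345 for all genes. The share higher among all genes was 0.486%, and both shares are the reference for the counts of every list below. Hey2, a repressor that acts in heart and vessels, had 20.2, 15.4, 13.9 and 16.0 CPM in SOMB and 9.97, 6.96, 8.47 and 11.4 CPM in SOMC. The groups did not overlap, and Hey2 fell by 0.82 ± 0.18 (adjusted p = 0.0414, and 0.105 with pairs summed). Nrarp, a feedback inhibitor of Notch, had 14.8 ± 3.67 and 8.82 ± 1.47 CPM (−0.74 ± 0.20, adjusted p = 0.106). Hes1, the most widely used target, differed by −0.20 ± 0.17 (adjusted p = 0.643).

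The Notch transcription factor RBPJ binds a core of the letters TGGGAA, and the window from 250 bases before to 50 bases after the start of Hey2 holds 2 of them. That window is shown because Hey2 and Hey1 fell together. It is given as RefSeq has it on GRCm38.p6, chr10:30842734-30843033, minus strand, 5′ to 3′ along the gene, with the matches in capitals.
Hey2 promoter: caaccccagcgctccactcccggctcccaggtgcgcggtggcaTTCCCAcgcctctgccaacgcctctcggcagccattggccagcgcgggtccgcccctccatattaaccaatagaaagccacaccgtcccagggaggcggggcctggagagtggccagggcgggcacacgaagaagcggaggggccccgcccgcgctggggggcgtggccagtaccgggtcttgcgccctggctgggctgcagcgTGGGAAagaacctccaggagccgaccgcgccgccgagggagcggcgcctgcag
The matches start 207 and 3 bases before the gene start, the former read on the opposite strand. Of the 9 targets 6 are in the promoter table, and 5 hold this core on either strand, against 25.5% of all 27025 promoters in it. Hey1 is not among the 6. A match of letters is a description and not a binding site.

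Among 10 Notch ligands, receptors and modulators, Dll3 alone passed. Dll3, a divergent ligand of the segmentation clock that blocks Notch within its own cell, had 14.0, 5.59, 10.0 and 8.20 CPM in SOMB and 2.56, 4.62, 3.14 and 4.15 CPM in SOMC. It fell by 1.39 ± 0.26 (adjusted p = 0.0219, and 0.0893 with pairs summed). Dll1, the ligand whose lineage was sorted, had 29.3 ± 8.14 and 19.1 ± 2.00 CPM and did not pass (−0.62 ± 0.19, adjusted p = 0.189).

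Genes of the presomitic mesoderm and tail bud were detected at low levels. Of 17 tested, 2 fell and none rose, against 0.341% lower among all genes, and the median difference was −1.12. Cdx4, a caudal homeobox gene of the tail bud, had 5.12, 2.69, 3.36 and 7.34 CPM in SOMB and 0.484, 0.380, 1.13 and 0.546 CPM in SOMC. No SOMC library reached the lowest SOMB library, and Cdx4 fell by 2.87 ± 0.52 (adjusted p = 0.0178, and 0.0893 with pairs summed). Evx1 (−1.75 ± 0.39, adjusted p = 0.0517), T or brachyury (−1.51 ± 0.35, adjusted p = 0.0596) and Cdx2 (−1.58 ± 0.42, adjusted p = 0.106) did not pass.

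SOMB1 held more of several of these transcripts than the other SOMB libraries. Tbx6, the T-box gene of unsegmented paraxial mesoderm, had 5.12 CPM in SOMB1 and 0.408 to 1.01 in SOMB2 to SOMB4. Mesp2, which places the next boundary, had 1.41 CPM there and 0.163 to 0.470 in the others. Pcdh8, a protocadherin of forming somites, had 20.1 CPM there and 2.89 to 4.0 in the others. None of these 3 passed the test (adjusted p = 0.335, 0.105 and 0.384). None of the 17 passed without SOMB1, where the median was −0.55, nor without SOMB4, SOMC1 or SOMC4. Without SOMB2 5 fell, and the median was −1.42. The part of such cells in the differences was not tested.

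Of 12 genes of somite boundaries and polarity, 1 passed. Cer1, a secreted inhibitor of Nodal and BMP that marks the front of the newest somites, had 7.45, 0.204, 7.52 and 7.48 CPM in SOMB and 0.0968, 0.127, 0 and 0.0364 CPM in SOMC. SOMB2 was near the SOMC libraries, with 5 counts against 169, 112 and 105 in the other SOMB libraries, and SOMC held 5 counts in all 4 libraries. The fitted difference was −6.32 ± 0.96 (adjusted p = 0.00638, and 0.0512 with pairs summed). The posterior marker Uncx (43.8 ± 9.57 and 41.0 ± 8.29 CPM) and the anterior marker Tbx18 (20.4 ± 1.54 and 20.3 ± 1.82 CPM) differed by −0.09 ± 0.19 and −0.01 ± 0.20 (adjusted p = 0.846 and 0.985).

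The cells carried the markers of paraxial mesoderm that their label names. Meox1, a homeobox gene of all somites, had 344 to 468 CPM in SOMB and 261 to 391 in SOMC, and Tcf15, which keeps somites epithelial, had 43.4 to 71.6 and 25.9 to 51.7 CPM. None of 8 genes of somite identity passed, nor did Meox1 (−0.39 ± 0.16, adjusted p = 0.369) or Tcf15 (−0.68 ± 0.24, adjusted p = 0.27). At an unadjusted p under 0.05, 1655 of all genes tested differed.

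Of 14 sclerotome genes 1 rose and none fell. Nkx3-2, a homeobox repressor that Pax1 and Hedgehog induce on the way to cartilage, had 2.69, 3.14, 1.75 and 1.71 CPM in SOMB and 7.35, 5.57, 5.46 and 6.73 CPM in SOMC. It rose by 1.4 ± 0.25 (adjusted p = 0.0172, and 0.0893 with pairs summed), and the groups did not overlap. Pax1, the paired-box factor of early sclerotome, had 56.7, 107, 37.6 and 41.0 CPM in SOMB and 55.3, 67.8, 65.7 and 55.5 CPM in SOMC. SOMB2 held the highest Pax1 level of all, and the difference of 0.00 ± 0.36 leaves a range that spans both directions (adjusted p = 0.999). Pax9, the close relative of Pax1, differed by 0.33 ± 0.40 (adjusted p = 0.732). Sox9, the master factor of cartilage, had 27.0 ± 11.4 and 42.4 ± 8.85 CPM (0.64 ± 0.26, adjusted p = 0.339).

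Of 8 Hedgehog targets tested 1 rose, again Nkx3-2. The effector Gli1 had 86.9 ± 16.8 and 99.0 ± 15.5 CPM (0.19 ± 0.23, adjusted p = 0.734). The receptor Ptch1 had 194 ± 45.9 and 206 ± 34.0 CPM (0.09 ± 0.18, adjusted p = 0.84).

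Genes of the cartilage matrix were higher in SOMC for the major collagen and one of its partners. Of 13 tested 2 rose and none fell, against 0.486% higher among all genes, with a median of 0.48. Beside Col2a1, Col9a1, which coats cartilage fibrils, had 34.8, 25.2, 21.5 and 18.5 CPM in SOMB and 64.4, 49.0, 37.7 and 67.1 CPM in SOMC. It rose by 1.12 ± 0.22 (adjusted p = 0.0299, and 0.15 with pairs summed), with its highest values in the near-identical SOMC1 and SOMC4. Acan, Comp, Lect1 and Matn1, genes of mature cartilage, were too low to test.

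The wider matrix list held 25 tested genes, of which 3 rose and none fell, against 0.486% higher among all genes. In 5 every SOMC library lay above every SOMB library, against 3.32% of all genes. The median was 0.43, and 0.35 with pairs summed, where 1 rose. Col12a1, which ties collagen fibrils together, had 3.84, 4.16, 2.62 and 2.35 CPM in SOMB and 10.6, 7.59, 6.08 and 11.0 CPM in SOMC. It rose by 1.42 ± 0.30 (adjusted p = 0.0416, and 0.146 with pairs summed). Col6a2, of the microfibrils around cells, rose by 0.95 ± 0.20, from 3.97 ± 0.868 to 7.62 ± 1.43 CPM (adjusted p = 0.167 with pairs summed). Dcn, a small proteoglycan like Lum, had 7.99 ± 2.09 and 13.2 ± 4.29 CPM and did not pass (0.72 ± 0.24, adjusted p = 0.231). Col3a1, of loose connective tissue, had 488 ± 92.5 and 869 ± 215 CPM (0.83 ± 0.25, adjusted p = 0.178). None of 9 tendon genes passed, among them Scx, the first tendon factor, at 1.01 ± 0.270 and 1.30 ± 0.511 CPM (adjusted p = 0.636).

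Genes of muscle differentiation were at low levels in both groups. Of 16 tested myogenic factors, Myog rose and Met fell. Myog, the bHLH factor of muscle differentiation, had 4, 2, 1 and 0 counts in SOMB1 to SOMB4 and 66, 13, 4 and 110 counts in SOMC1 to SOMC4. In CPM these were at most 0.176 in SOMB and 3.19, 0.823, 0.251 and 4.0 in SOMC. Most of the SOMC signal lay in the near-identical SOMC1 and SOMC4, while SOMC3 was near the SOMB level. The fitted difference was 4.48 ± 0.90 (adjusted p = 0.0402, and 0.146 with pairs summed).

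Met, the receptor that muscle precursors need to leave for the limb, had 18.2, 14.5, 17.5 and 19.5 CPM in SOMB and 7.74, 10.9, 9.09 and 8.59 CPM in SOMC. It fell by 0.94 ± 0.15 (adjusted p = 0.00838), passed without each single library and missed the threshold with pairs summed (adjusted p = 0.068). Myf5, the first muscle factor, had 5.16 ± 1.99 and 6.32 ± 1.52 CPM (0.28 ± 0.30, adjusted p = 0.697). Myod1 was too low to test, with 2 counts over the SOMB and 7 over the SOMC libraries.

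Of 18 tested sarcomere and muscle membrane genes 1 rose. Tnni1, troponin I of slow muscle, had 9.92, 7.51, 12.4 and 10.6 CPM in SOMB and 15.2, 14.9, 16.2 and 15.6 CPM in SOMC. The SOMC libraries were close together, and Tnni1 rose by 0.62 ± 0.13 (adjusted p = 0.0403, and 0.162 with pairs summed). The muscle bHLH factors bind E-boxes, of the letters CANNTG, and the window around a start of Tnni1 is shown because it was the one gene of the list that rose. That start lies inside the span of the gene, and the window is chr1:135799171-135799470 on GRCm38.p6, plus strand, with matches in capitals.
Tnni1 promoter: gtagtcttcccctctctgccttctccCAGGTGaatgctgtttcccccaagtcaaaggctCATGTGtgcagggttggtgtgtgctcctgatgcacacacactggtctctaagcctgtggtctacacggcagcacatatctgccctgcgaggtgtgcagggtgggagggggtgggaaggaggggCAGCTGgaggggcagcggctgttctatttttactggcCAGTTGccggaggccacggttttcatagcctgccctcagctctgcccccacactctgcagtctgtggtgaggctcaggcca
The 4 matches start 224, 191, 68 and 31 bases before the gene start. An E-box is common in such windows: 72.1% of the 27025 promoters hold one, as do 17 of the 18 promoters of the list that are in the table.

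Dermomyotome markers gave increases at low levels. Of 11 tested, 2 rose and none fell, against 0.486% higher among all genes, with a median of −0.02. En1, a homeobox gene of the central dermomyotome, had 0.118 ± 0.114 CPM in SOMB and 0.973 ± 0.527 in SOMC (3.18 ± 0.70, adjusted p = 0.0468, and 0.164 with pairs summed). Dpt, a small matrix protein of dermis, had 0.249 ± 0.246 and 1.09 ± 0.118 CPM (1.95 ± 0.43, adjusted p = 0.0463, and 0.188 with pairs summed). Both are thus at low levels, and both lost the call without most single libraries. Pax3, the paired-box factor of the dermomyotome, had 50.5, 49.5, 62.2 and 51.7 CPM in SOMB and 31.2, 59.98, 31.5 and 31.5 CPM in SOMC. SOMC2 lay among the SOMB libraries, and the other 3 below them (−0.48 ± 0.24, adjusted p = 0.448). Pax7, its paralogue in muscle progenitors, had 0.673 ± 0.185 and 1.65 ± 0.797 CPM (adjusted p = 0.118).

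Guidance genes formed the longest list. Of 43 tested, 4 rose and 1 fell, against 0.486% higher and 0.341% lower among all genes, with a median of 0.17. Epha3, a receptor for membrane-bound ephrins, had 8.86, 10.5, 6.31 and 6.91 CPM in SOMB and 39.4, 14.4, 27.6 and 39.6 CPM in SOMC. SOMC1 and SOMC4 were the highest, and Epha3 rose by 1.88 ± 0.37 (adjusted p = 0.0282, and 0.146 with pairs summed). Plxna4, a receptor for semaphorins, had 6.57, 4.90, 17.5 and 8.34 CPM in SOMB and 19.9, 30.5, 24.6 and 18.7 CPM in SOMC. Here SOMB3 came close to the SOMC libraries (1.35 ± 0.28, adjusted p = 0.04, and 0.111 with pairs summed).

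Sema3a, a repellent of axons and crest cells, rose by 0.64 ± 0.13, from 61.2 ± 3.94 to 95.4 ± 15.9 CPM (adjusted p = 0.0348, and 0.08 with pairs summed). Sema3c, an attractant of the same class, fell by 0.53 ± 0.11, from 44.0 ± 5.48 to 30.4 ± 4.33 CPM (adjusted p = 0.04, and 0.0893 with pairs summed). Secreted semaphorins of 1 class thus moved in both directions. Of 26 adhesion genes Alcam alone passed. Cdh15, the cadherin of muscle precursors, had 3.32 ± 1.37 and 7.01 ± 2.18 CPM (1.05 ± 0.30, adjusted p = 0.137).

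**Figure D4:**
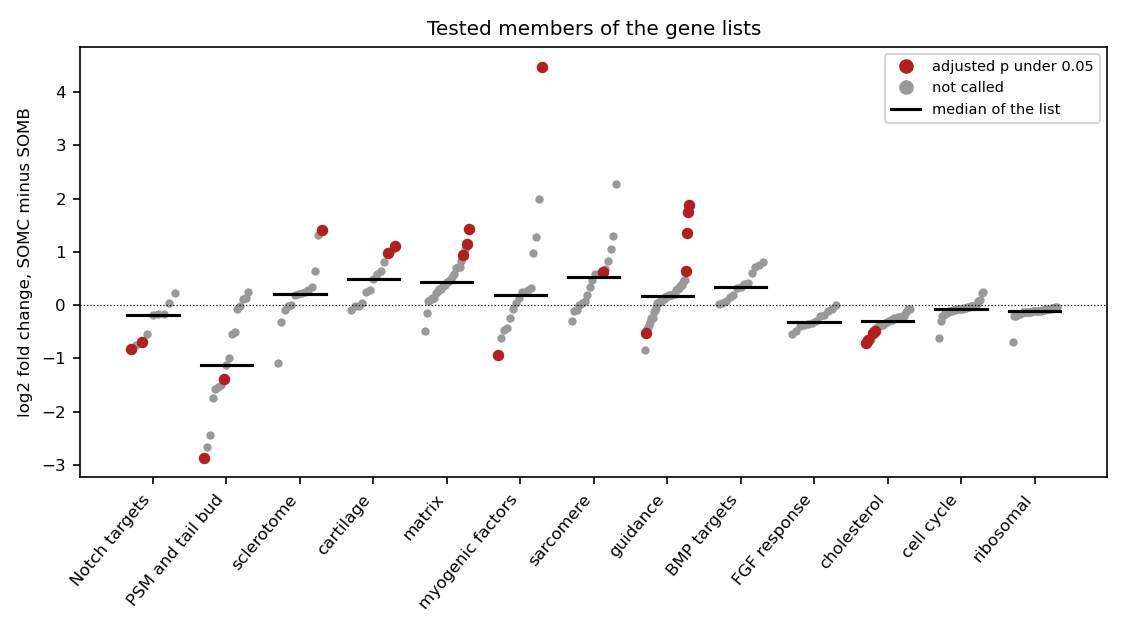
Each point is a tested gene of the list named on the horizontal axis, with its log2 fold change, SOMC minus SOMB, on the vertical axis; red points passed the test and black bars are list medians. Presomitic and tail bud genes have a median of −1.12. Cholesterol genes lie below 0 in all 24 members, and ribosomal genes in all 30. The points far from 0 belong to low transcripts such as Myog.

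In the BMP pathway the 2 Smoc genes moved apart. Both encode matrix proteins that can oppose BMP signals. Smoc1 had 93.0, 73.7, 89.3 and 90.1 CPM in SOMB and 42.8, 63.0, 45.2 and 43.1 CPM in SOMC, where SOMC2 was the highest. It fell by 0.84 ± 0.15 (adjusted p = 0.02, and 0.0893 with pairs summed), while Smoc2 rose. Bmp5, a ligand that shapes cartilage, had 23.2, 19.0, 25.6 and 22.5 CPM in SOMB and 36.6, 34.4, 30.1 and 39.3 CPM in SOMC. It rose by 0.64 ± 0.14 (adjusted p = 0.045, and 0.208 with pairs summed). In all, 2 of 21 BMP ligands and antagonists rose and 1 fell, against 0.486% higher and 0.341% lower among all genes.

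Of 13 tested BMP targets none passed in edgeR with separate libraries or with pairs summed, and 2 were higher by DESeq2. Over all 13790 genes DESeq2 called 158 higher. In 4 of them every SOMC library lay above every SOMB library, against 3.32% of all genes, and the median was 0.35, or 0.32 with pairs summed. Hand1 is among these 4, and both Hand1 and Hand2 are counted again with the lateral plate genes below. All 13 differences were above 0 with separate libraries, and 11 with pairs summed. Smad9, a transducer of BMP signals, differed by 0.82 (adjusted p = 0.0689), and Msx2, a homeobox target, by 0.76 (adjusted p = 0.102). The direct targets Id1 and Id3 differed by 0.07 ± 0.13 and 0.20 ± 0.11 (adjusted p = 0.83 and 0.487), and Msx1 by 0.01 ± 0.17.

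Among Wnt genes 2 secreted inhibitors rose, both at low levels. Of 17 Wnt targets and antagonists 2 rose and none fell, against 0.486% higher among all genes. Wif1, which binds Wnt proteins, had 1.46, 1.51, 1.07 and 0.713 CPM in SOMB and 3.48, 3.16, 3.70 and 3.78 CPM in SOMC. It rose by 1.53 ± 0.27 (adjusted p = 0.015, and 0.068 with pairs summed), and its groups lay apart. Sfrp5, a soluble decoy of Wnt receptors, had 0.165 ± 0.121 and 0.590 ± 0.123 CPM (1.85 ± 0.39, adjusted p = 0.0403, and 0.133 with pairs summed). Axin2, the usual readout of Wnt signalling, differed by 0.075 (adjusted p = 0.758). Outside the lists Rspo4, which boosts Wnt signalling, rose by 2.14 ± 0.39, from 1.65 ± 0.890 to 7.18 ± 0.562 CPM (adjusted p = 0.02, and 0.068 with pairs summed). It was added after its values were seen.

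Of 10 tested FGF ligands 1 fell. Fgf18, which signals in growing cartilage and limb, had 18.4, 15.7, 24.0 and 24.2 CPM in SOMB and 5.03, 10.9, 10.7 and 5.35 CPM in SOMC. SOMC1 and SOMC4 were the lowest, and Fgf18 fell by 1.38 ± 0.24 (adjusted p = 0.015, and 0.0792 with pairs summed). None of 12 genes of the FGF response passed, by edgeR or by DESeq2. All 12 were below 0, and 11 without scaling of library totals or 9 in the 5 libraries with fewer reads in no feature. The median was −0.31. The feedback inhibitor Dusp6 did not pass (151 and 115 CPM, −0.39, adjusted p = 0.19).

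Of 14 genes of retinoic acid signalling 1 fell. Aldh1a3, one of the enzymes that make retinoic acid, had 1.5, 0.857, 2.89 and 2.85 CPM in SOMB and 0.290, 0.190, 0.502 and 0.146 CPM in SOMC. It fell by 2.84 ± 0.54 (adjusted p = 0.0228, and 0.0792 with pairs summed). Aldh1a2, the main such enzyme of somites, differed by −0.31 (215 and 174 CPM, adjusted p = 0.643).

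Among Hox genes, which give each axial level its identity, Hoxc5 alone passed, and it rose. Hoxc5 (chr15:103014008-103017429), of the neck and upper trunk, had 13.3, 12.9, 14.4 and 11.5 CPM in SOMB and 23.2, 33.6, 26.1 and 23.4 CPM in SOMC. It rose by 1.02 ± 0.13 (adjusted p = 0.00189, and 0.00867 with pairs summed), the one call among 15 tested genes of paralogue groups 1 to 5. The median of those 15 was 0.20. Of its neighbours, Hoxc4 differed by 0.26 ± 0.18 and Hoxc6 by 0.29 ± 0.14 (adjusted p = 0.557 and 0.438). None of 12 genes of groups 6 to 9 passed. Hoxb6 came nearest, with 24.3 to 32.1 CPM in SOMB and 36.9 to 40.6 in SOMC (0.44 ± 0.10, adjusted p = 0.0517).

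Hox genes of groups 10 to 13, of the lumbar to tail region, varied widely between libraries of each group. Hoxc10 had 73.9, 76.5, 24.2 and 18.0 CPM in SOMB and 19.6, 1.71, 0.251 and 22.0 CPM in SOMC. Hoxa10 had 53.8, 41.4, 11.2 and 9.84 CPM in SOMB and 18.2, 0.696, 0.439 and 15.0 CPM in SOMC. In both, SOMC1 and SOMC4 lay near SOMB3 and SOMB4, and SOMC2 and SOMC3 close to 0, so the groups overlapped. None of 9 passed in edgeR or DESeq2 (Hoxc10 −2.09 ± 0.67, adjusted p = 0.205), and all 9 were below 0, with a median of −2.09. Hoxd13 had 19.8 CPM in SOMB1 and at most 2.03 in the other 7 libraries. Its difference of −2.40 ± 1.06 turned to 0.20 without SOMB1, and 2 of the 9 were then above 0.

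Genes of the limb and heart fields of the lateral plate differed between libraries in a like way. Tbx5, of the forelimb field, had 1.76, 0.204, 16.6 and 3.14 CPM in SOMB and 16.5, 36.6, 30.5 and 15.5 CPM in SOMC. SOMB3 lay within the range of SOMC1 to SOMC4, and Tbx5 did not pass (2.29 ± 0.66, adjusted p = 0.14). Pitx1, of the hindlimb field, had 109, 79.1, 53.4 and 77.4 CPM in SOMB and 75.3, 21.4, 21.3 and 66.7 CPM in SOMC (−0.78 ± 0.34, adjusted p = 0.381). None of 10 tested lateral plate genes passed, but 8 were above 0, with a median of 0.60, or 0.36 over the 9 tested with pairs summed. In 3 of them every SOMC library lay above every SOMB library, against 3.32% of all genes. These were the heart field genes Gata4 (0.962 ± 0.559 and 4.24 ± 1.4 CPM, adjusted p = 0.0799) and Gata5 (3.19 ± 1.6 and 8.0 ± 0.65 CPM, adjusted p = 0.205), and Hand1 (42.2 ± 11.6 and 69.2 ± 18.5 CPM, adjusted p = 0.169). DESeq2 called 1 of the 10 higher, against 158 of all 13790 genes. Their summed level was 190.8 to 327.9 CPM in SOMB and 232.0 to 374.8 in SOMC. The part of lateral plate cells in the differences above was not tested.

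**Figure D5:**
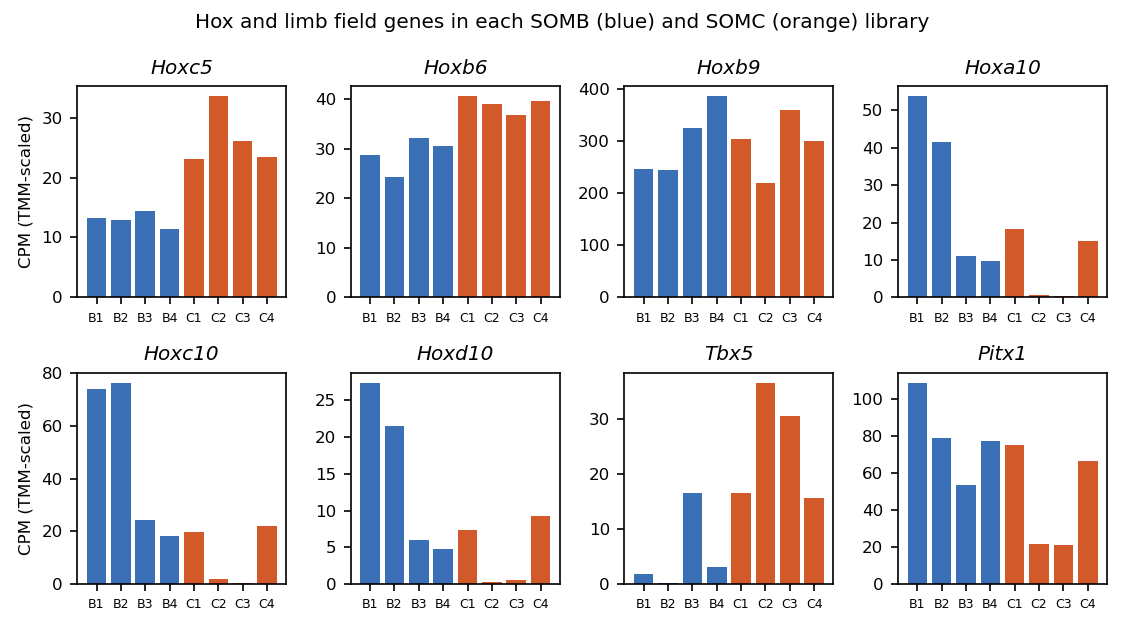
Bars give the level in CPM (vertical axis) of Hoxc5, Hoxb6, Hoxb9, Hoxa10, Hoxc10, Hoxd10 and the limb field genes Tbx5 and Pitx1 in each of the 8 libraries (SOMB blue, SOMC orange). Hoxc5 is higher in every SOMC library, while Hoxa10, Hoxc10, Hoxd10, Tbx5 and Pitx1 overlap between the groups and split SOMC1 and SOMC4 from SOMC2 and SOMC3.

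Among genes of cholesterol synthesis a few fell, and none did once the pairs were summed. Of 24 tested genes 4 fell and none rose, against 0.341% lower among all genes. In 12 every SOMC library lay below every SOMB library, against 2.73% of all genes, and the median was −0.31. All 24 were below 0, with RLE size factors and without scaling as well, and 23 without SOMB3. When any 1 library was left out, 1 to 3 of the 24 passed. Idi1, which isomerises the isoprenoid unit, had 39.4, 51.4, 47.9 and 49.0 CPM in SOMB and 26.2, 29.6, 30.7 and 27.3 CPM in SOMC. It fell by 0.72 ± 0.12 (adjusted p = 0.00838), and passed without each single library and among the libraries with the lower share of reads in no feature (adjusted p = 0.0446). With pairs summed it missed the threshold (adjusted p = 0.068).

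The sterol-forming enzymes Cyp51 (136 ± 9.92 to 97.0 ± 3.9 CPM), Nsdhl (37.1 ± 2.44 to 25.9 ± 0.863 CPM) and Sc4mol (58.5 ± 7.88 to 37.1 ± 4.18 CPM) fell by 0.49 ± 0.10, 0.52 ± 0.10 and 0.66 ± 0.14. With pairs summed none of the 24 passed in edgeR (adjusted p = 0.133, 0.142 and 0.177 for these 3), the median was −0.29 and all 24 stayed below 0. DESeq2 called 9. In the 3 libraries with the higher share of reads in no feature 22 of 24 were below 0. Hmgcs1, an early enzyme of the pathway, had 201 ± 9.22 and 156 ± 12.2 CPM and did not pass (−0.37 ± 0.09, adjusted p = 0.0847). Of 16 promoters of the list in the table, that of Hmgcs1 alone holds the letters TCACNCCAC of a sterol response element, on either strand, against 1.22% of all promoters.

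None of 29 cell cycle genes passed, with a median of −0.07 and 24 below 0. None of 30 ribosomal protein genes passed either, with a median of −0.12, and all 30 were below 0. DESeq2 called 1 of the 29 lower, against 128 of all 13790 genes. The ribosomal median moved to −0.00037 without SOMB2, and to 0.032 with that of no-feature reads as a covariate.

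Markers of other cell types gave no call in edgeR with separate libraries or with pairs summed. None of the tested members passed in the lists for intermediate mesoderm (9), neural tube (16), neural crest (9), endothelium (12), erythroid cells (4), macrophages (1), endoderm (8), notochord (6) and surface ectoderm (9). DESeq2 called 1 member lower in intermediate mesoderm and 1 in notochord, against 128 of all 13790 genes. Intermediate mesoderm markers summed to 134.4 to 226.9 CPM in SOMB and 137.3 to 140.7 in SOMC. Neural tube markers summed to 98.7 to 177.5 CPM in SOMB and 83.6 to 144.2 in SOMC, and endothelial markers to 104.6 to 280.9 and 114.9 to 294.8. Erythroid markers summed to 3.76 to 41.1 and 7.15 to 81.8 CPM, and macrophage markers to at most 8.99 and 8.23. Of the defining markers, the adult globin gene Hba-a1 and the macrophage gene Emr1 were at 0 in all 8 libraries. The embryonic globin gene Hbb-y had 17 to 496 counts. Reads without a unique alignment, 18.0 to 20.3% in SOMB and 18.2 to 19.3% in SOMC, were not counted. A count of 0 thus need not mean that a transcript was absent. The part of cells of these types in the differences was not tested.

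Other genes picked by size completed the list. Colec10, a collectin, rose by 1.15 ± 0.19 and Adh1, an alcohol dehydrogenase that can oxidise retinol, by 1.13 ± 0.22. Sdpr, a caveolar protein, rose by 1.08 ± 0.22, from 5.52 ± 1.02 to 11.6 ± 2.31 CPM. Their adjusted p with pairs summed was 0.068, 0.0893 and 0.146. Gdnf, a ligand of the Ret receptor, fell by 1.32 ± 0.26, from 7.51 ± 2.27 to 2.96 ± 0.578 CPM, and Ptprz1, a receptor phosphatase, by 1.31 ± 0.22, from 8.40 ± 2.72 to 3.37 ± 0.574 CPM. With pairs summed these 2 had an adjusted p of 0.0893 and 0.08. Naaa, a lysosomal amidase, fell by 0.89 ± 0.13 from 40.9 ± 4.15 to 22.1 ± 1.08 CPM and passed without each single library (adjusted p = 0.0512 with pairs summed). Greb1l, a regulator of kidney and craniofacial growth, fell by 0.85 ± 0.16, and Dsc2, a desmosomal cadherin, by 0.87 ± 0.19. Depdc7 and Tmem100 fell by 1.13 ± 0.25 and 0.70 ± 0.14. With pairs summed Greb1l, Dsc2, Depdc7 and Tmem100 also missed the threshold (adjusted p = 0.0953, 0.0893, 0.226 and 0.133). Six2, a homeobox gene of nephron and skull progenitors, fell by 1.51 ± 0.28, from 6.61 ± 1.17 to 2.32 ± 0.419 CPM, and was added after its values were seen (adjusted p = 0.0893 with pairs summed).

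The levels at the ends of the series place some of these genes. SOMB is shared by these values, so no test is drawn from them. Alcam had 4.94 ± 0.622 CPM in SOMA (n = 3) and 65.4 ± 17.3 in SOMD (n = 4), on either side of SOMB and SOMC. Pkdcc had 16.7 ± 3.44 and 278 ± 11.8 CPM, and Col2a1 56.4 ± 8.83 and 271 ± 39.8 CPM, with the same order. Smoc2 had 4.14 ± 0.6 and 21.0 ± 2.51 CPM, so its SOMD level was near that of SOMC. Tdo2 had 0.789 ± 0.290 and 4.82 ± 0.447 CPM, and its mean was highest in SOMC. Hey1 had 64.0 ± 1.06 and 15.8 ± 0.649 CPM, and Ifitm1 178 ± 24.2 and 13.7 ± 5.72 CPM, both falling in order from SOMA to SOMD. Vtn had 4.31 ± 1.52 and 2.27 ± 0.714 CPM, so its mean was lowest in SOMC. The SOMD mean lay above the SOMB mean in 66 of the 67 genes that rose, and below it in all 47 that fell. The SOMA mean lay below the SOMB mean in 57 of the 67, and above it in 37 of the 47. Shares over all genes tested were not computed for these counts, which are a description only. A SOMD mean below SOMB need not lie below SOMC. All 4 called cholesterol genes had a higher mean in SOMD than in SOMC. Idi1 had 28.5 CPM in SOMC and 35.7 in SOMD, Cyp51 97.0 and 122, Nsdhl 25.9 and 32.7, and Sc4mol 37.1 and 51.3. How many of the 47 did so was not counted.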

How the data were processed

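RNA of 15 SOM libraries from sorted Dll1-lineage cells was used. Per the labels' protocols, Trizol extraction was followed by TruSeq V2 libraries (11 PCR rounds), a kit that does not mark strand. The authors deposited 1 whole-number read count for each gene and library. The submitters' processing notes name mm10 and, in no stated order, HTSeq 0.6, TopHat2 2.0.9, DESeq2 1.10 and Cufflinks. No source used here gives the annotation or strand setting. HTSeq's summary lines were dropped. Among them, no-feature reads came to between 7.57 and 12.5% over the 8 libraries. Groups follow the library titles.

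After filterByExpr, with a count of at least 10 and a total of at least 15, TMM factors were computed and edgeR 4.0.16 (R 4.3.3) fitted the genes, with all 15 libraries sharing 1 estimate of the spread and a prior count of 0.125. The quasi-likelihood F test of SOMC minus SOMB was adjusted by Benjamini-Hochberg over 13790 genes, and the steps were tested on simulated data. Each SE is the absolute log2 fold change divided by the square root of F. For transcripts near 0 both the fold change and its SE depend on the prior count. Named genes are the 15 largest changes in each direction with adjusted p under 0.05, at least 5 CPM and no overlap, 28 anchor genes, and up to 4 called genes of each of 41 lists; other names are said to be chosen later or belong to the lists. The members, taken by title, and the lists were chosen with earlier results of these data known. Lists are described by counts and medians. All 114 called genes matched RefSeq (GRCm38.p6). Alternatives were other scalings, no filter, DESeq2 1.42.0, the replicate number as a block, the no-feature share as a covariate, near-identical pairs summed and each library left out; 2 more were added after seeing the data. Figures used matplotlib 3.10.9.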

Additional observations from a re-analysis of the deposited data

Results flagged for a closer look

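In 12 cases among 99 genes looked at in both groups, 1 library lay far from the other 3 of its group. Chance flags about 1 in 20 groups, and in SOMC the near-identical pair SOMC1 and SOMC4 makes a gap to a single other library more likely. SOMC2 was high for Pax3 (59.98 CPM, next 31.5), Smoc1 (63.0 CPM, next 45.2), Greb1l (125.8 CPM, next 99.4) and Sc4mol (43.3 CPM, next 35.6), and low for Cdx2 (0.633 CPM, next 1.55). SOMC3 was low for the Hedgehog effector Gli1 (75.95 CPM, next 105.0). SOMB3 was high for Pax3 (62.2 CPM, next 51.7) and Chrna4 (4.43 CPM, next 2.14). SOMB2 was low for Cer1 (0.204 CPM, next 7.45) and Ptprz1 (4.37 CPM, next 9.33). SOMB1 was high for Hoxd13 (19.8 CPM, next 1.84) and low for Sema3a (55.3 CPM, next 62.9). The causes were not tested.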

How the results depend on the processing

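The number of called genes depends on how the libraries are counted. Against 67 higher and 47 lower, the counts were 11 and 4 with the near-identical pairs summed, 102 and 77 with the replicate block, 158 and 128 with DESeq2 and 1 and 4 with only the libraries of the lower share of reads in no feature. They were 10 and 4 with SOMC4 and SOMD4 left out, and 16 and 21 with the pairs summed and SOMB2 left out, both chosen after seeing the data. With 1 library left out they ran from 16 to 68 higher and 9 to 68 lower. RLE size factors gave 67 and 51, no scaling 58 and 36, no filter 72 and 60, only SOMB and SOMC in the fit 51 and 33, and the no-feature share as a covariate 64 and 61. The cause of these shifts was not tested. In the fit of only SOMB and SOMC 63 of the 67 and 46 of the 47 were tested, and these kept their sign. In every other setting all 114 did, a description only, since the calls rest on these same libraries.

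Replicate numbers share only a number. Same-number libraries of SOMB and SOMC had correlations of their deviations of −0.313 to 0.529, other numbers −0.472 to 0.587, and 0 of 4 SOMB libraries correlated best with the SOMC library of their own number. Libraries with other numbers deviated together, SOMB1 with SOMC4 (0.587), SOMB3 with SOMC2 (0.567) and SOMB4 with SOMC3 (0.490), beside SOMB1 with SOMC1 (0.529). No label pairs them, and the tests without a block take no account of it. The block joins equal numbers, so among these it follows only SOMB1 with SOMC1. The block gave 102 and 77 calls and brought Evx1 (−1.83), Hoxb6, Gata4, T, Cdx2, Eya1 and Cdh15 past the threshold and took Tnni1 (adjusted p = 0.0538) and Col6a2 (adjusted p = 0.0528) off it, among the single genes followed in every setting. In the lists it called 3 BMP targets and 2 lateral plate genes higher, and 1 intermediate mesoderm and 1 notochord gene lower. These belong beside its 102 higher and 77 lower calls among 13790 genes. With no filter and with only SOMB and SOMC in the fit, 1 gene of each of the latter lists was also lower.

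Genes with differences near 0 changed sign in some settings. The Msx1 log2 fold change was −0.048 with pairs summed, −0.12 with the no-feature share as a covariate, −0.17 in the low-share libraries and −0.16 with pairs summed and SOMB2 left out. The Pax1 log2 fold change was −0.00531 with RLE, −0.00938 with no filter and −0.00595 with only SOMB and SOMC in the fit. The Tbx18 log2 fold change was 0.015 without scaling, and the Ptch1 log2 fold change −0.029 with pairs summed and SOMB2 left out. The Pax9 log2 fold change was −0.00612 with the no-feature share as a covariate and −0.16 in the low-share libraries, and the Gli1 log2 fold change −0.061 with the covariate. With 1 library left out the lowest and highest values were −2.86 and 0.20 for the Hoxd13 log2 fold change, −0.040 and 0.16 for the Id1 log2 fold change, −0.10 and 0.096 for Msx1, −0.17 and 0.43 for Pax1, −0.048 and 0.22 for Ptch1, −0.050 and 0.033 for Tbx18, and −0.24 and 0.064 for the Uncx log2 fold change.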
